A study of Rattus norvegicus with 12 samples.

Results

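10 genes of the transcription factor network that builds and maintains heart muscle were followed in stretched cardiomyocytes: Gata4, Gata6, Nkx2-5, Tbx5, Tbx20, Hand2, Mef2a, Mef2c, Mef2d and Irx4. They were chosen by name, as the probes that the array files assign to these genes; each gene had 1 probe, so 10 of 30367 probes on the array and 10 of 14376 genes tested. The cells were ventricular cardiomyocytes of newborn rats, grown for 24 h in medium with 10% serum on collagen-coated elastic membranes. They were then either left unstretched or subjected to rhythmic biaxial stretch, at 20% elongation, on the same kind of plate for 2, 6 or 24 h. No transgene or drug was part of any group, and the labels used here name no strain. There were 3 cultures a group, biological replicates by their labels, and each was read on 1 array. Whether the cultures came from separate isolations is not given, so errors and p-values measure the spread between these cultures. The same 3 control cultures served every comparison with control, and no comparison was separated from time in culture.

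In the developing heart these factors bind DNA together and regulate each other's genes. The GATA zinc finger proteins, the homeobox protein Nkx2-5 and the T-box proteins activate genes for contractile proteins, ion channels and natriuretic peptides. The MADS-box proteins of the MEF2 family are kept in check by class II histone deacetylases and are known to respond to hypertrophic signals. Hand2 is a basic helix-loop-helix protein of the right ventricle, and Irx4 is a homeobox protein known for maintaining ventricular as opposed to atrial gene expression.

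A probe here is a 60-base oligonucleotide. The first 30 bases are shown for the probes of the genes with the changes described first, since they identify which part of each transcript was read. By the positions in the array files, on rat genome build rn4, the Irx4 probe lies at chr17:106463-106522 on the minus strand, the Mef2c probe at chr2:12329521-12329580 on the minus strand and the Nkx2-5 probe at chr10:16608802-16608861 on the plus strand. The Tbx5 probe is placed at chr12:37957220-37969093 on the minus strand, a span of 11874 bases for 60 bases of probe, so it crosses at least 1 exon junction.
Irx4: tttacgtccaaagtttacaaggagaaggca
Mef2c: ggccctaggaacaaccaatgtgctttactt
Nkx2-5: ttctccgatccatccccttttgttgaccta
Tbx5: caaatttaccactgtaccaagaggaaagat

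Of the promoters in RefSeq's table on build GRCr8, 8 of the 10 genes had an entry. The 250 bases before the start of transcription are shown for Irx4, the gene with the largest fall, for Nkx2-5, the gene that rose, and for Hand2, which held matches to motifs of other members. They lie at chr1:31868090-31868339 (minus strand), chr10:16848350-16848599 (plus strand) and chr16:37931489-37931738 (minus strand). GRCr8 and rn4 coordinates are not interchangeable. The Irx4 probe was placed on chr17 in rn4 and the Irx4 promoter on chr1 in GRCr8, whereas Nkx2-5 and Hand2 kept their chromosome. The reason for the Irx4 difference was not checked. Capitals mark matches, on either strand, to the GATA motif (AGATAA, or these letters with T first, with G last or with both), the NKX2-5 motif (AAGTG), the T-box motif (GGTGTG), the MEF2 motif, the AP-1 motif (TGANTCA) or the CRE motif (TGACGTCA).
Irx4: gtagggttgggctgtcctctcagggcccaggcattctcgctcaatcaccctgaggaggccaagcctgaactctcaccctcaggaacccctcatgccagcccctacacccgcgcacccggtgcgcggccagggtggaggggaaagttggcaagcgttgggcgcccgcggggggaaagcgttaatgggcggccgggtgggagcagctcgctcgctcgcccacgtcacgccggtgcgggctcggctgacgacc
Nkx2-5: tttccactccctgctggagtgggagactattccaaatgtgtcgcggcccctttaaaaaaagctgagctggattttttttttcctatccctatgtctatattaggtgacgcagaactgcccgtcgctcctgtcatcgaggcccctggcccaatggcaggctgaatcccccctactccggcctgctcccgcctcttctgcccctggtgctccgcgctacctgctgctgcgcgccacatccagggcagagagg
Hand2: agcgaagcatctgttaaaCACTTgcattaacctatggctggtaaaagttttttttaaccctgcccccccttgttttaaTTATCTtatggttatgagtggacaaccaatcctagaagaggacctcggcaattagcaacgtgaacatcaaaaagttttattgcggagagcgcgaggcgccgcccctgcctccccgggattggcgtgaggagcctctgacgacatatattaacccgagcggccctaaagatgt

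The Irx4 and Nkx2-5 windows held no match to these 6 motifs. The E-box (CANNTG), bound by the family of Hand2 and not marked by capitals because it is common, occurred in 3 of the 8 windows, including that of Nkx2-5 (CAAATG, 218 bases before the start), against 65.5% of all windows. The Hand2 window held 1 GATA match, starting 172 bases before the start of transcription, and 1 NKX2-5 match. GATA matches occurred in 2 of the 8 windows, those of Tbx5 and Hand2, against 27% of 33469 rat promoter windows of the same length, and the NKX2-5 motif in 1 of 8 against 40.6%. The T-box motif occurred in 1 window, that of Mef2a, against 15.4% of all windows. The Mef2a window also held the sequence CTAAAAATAG, a MEF2 motif, 40 bases before the start; this motif occurred in 0.523% of all windows. AP-1 and CRE motifs occurred in 0 of 8 windows, against 6.34% and 1.59% of all windows. A match describes letters in the window and not binding.

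All values below are log2 of the processed signal relative to the 75th percentile of its array, and a change is a difference between group means, with the standard error (SE) of the model and n = 3 cultures a group. A gene was called changed at an adjusted p below 0.05 over all genes tested. All 10 genes were well above background on all 12 arrays. The 75th percentile of the signal was 1142 to 1671, 64.7% to 70.6% of spots were above background, and 0 spots were saturated. The levels of different genes come from different probes and are not compared. Control and 2 h arrays and 6 h replicates 1 and 2 shared slide 1, while 6 h replicate 3 and the 24 h arrays shared slide 2. The 24 h change of each of the 10 genes is therefore also given with the slide as a block. The slide term is set only by 6 h replicate 3 against 6 h replicates 1 and 2. A 24 h call kept or lost with the block thus rests on 1 array and does not separate slide from stretch.

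At 2 h, 3 of the 10 genes were called, against 9.2% of all genes: Nkx2-5 was higher, as were 3.1% of all genes, and Irx4 and Mef2c were lower, as were 6.1%. At 6 h, 2 were called, Irx4 and Mef2c, both lower, against 16.8% of all genes called and 11.7% called lower. At 24 h, 6 were called, all lower: Irx4, Tbx5, Mef2c, Tbx20, Hand2 and Gata6. At that time 47.9% of all genes were called and 31.7% were called lower, so a large share of the array moved as well. The stretched and control cultures did not overlap for 4 of the 10 genes at 2 h, 5 at 6 h and 6 at 24 h, against 28.6%, 39.4% and 58.9% of all genes. The share without overlap at 24 h is near that of all genes. The median change of the 10 genes was 0.02, -0.04 and -0.23 at 2, 6 and 24 h, beside -0.01, -0.05 and -0.08 for all genes. A moderated F test over the 4 groups called 7 of the 10, all but Gata4, Mef2a and Mef2d, against 52.8% of all genes.

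**Figure D1:**
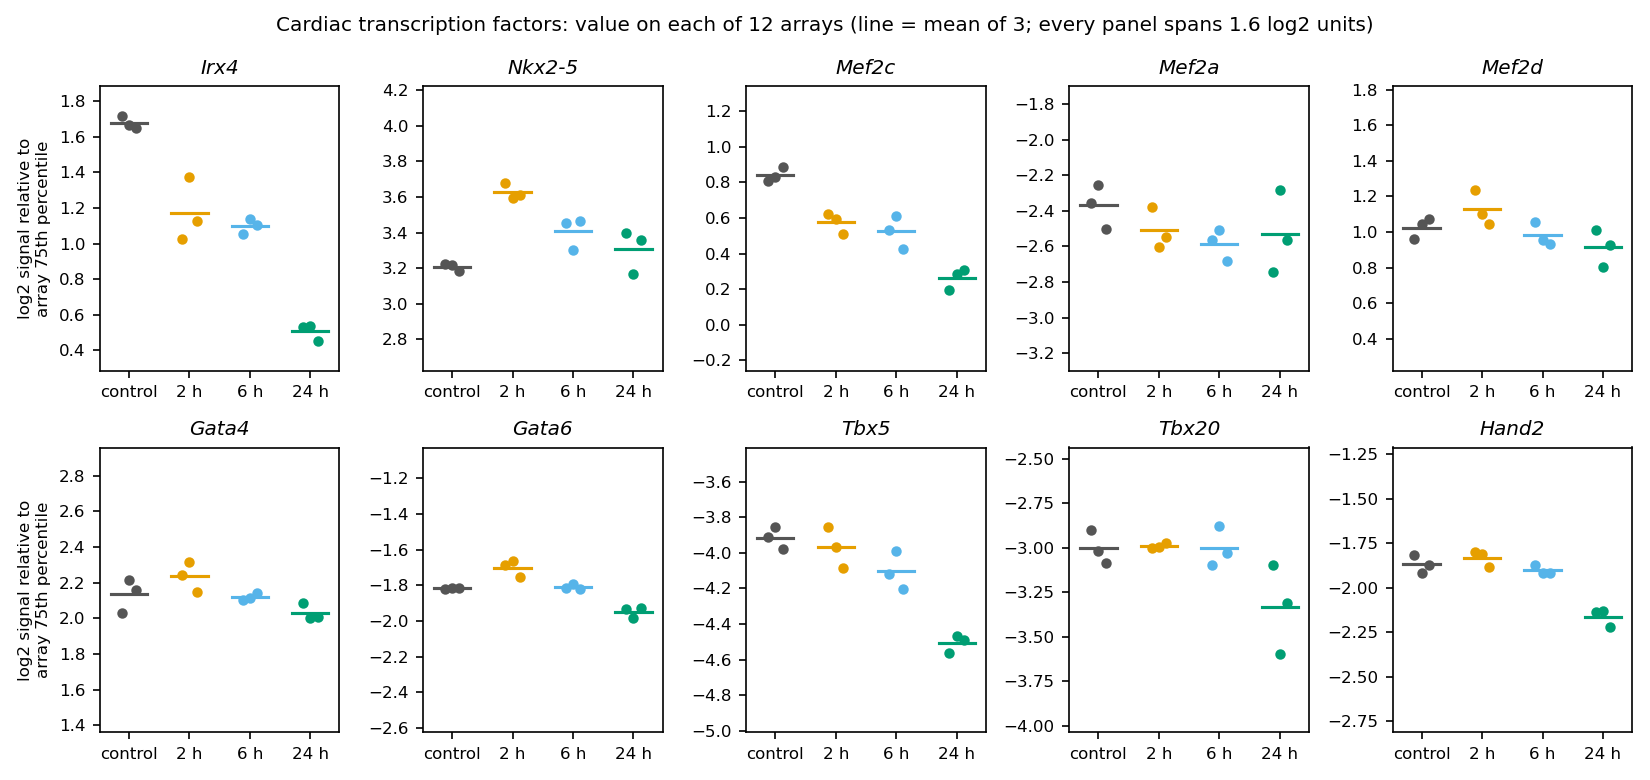
Log2 signal relative to the 75th percentile of the array (y axis) in the 3 cultures of each group (x axis) for the 10 genes; dots are cultures, lines are group means, and every panel spans the same range. The 24 h Irx4 cultures lie between 0.45 and 0.54 and the controls between 1.65 and 1.72, and the 2 h Nkx2-5 cultures lie above every other group.

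Irx4, the ventricular homeobox gene, fell at every time. Its values were 1.72, 1.67 and 1.65 in the 3 controls, 1.02, 1.37 and 1.13 at 2 h, 1.06, 1.14 and 1.11 at 6 h, and 0.53, 0.54 and 0.45 at 24 h. Every stretched culture lay below every control, and every 24 h culture lay below every 2 h and 6 h culture. The change from control was -0.50 (SE 0.0772, adjusted p = 0.00475) at 2 h, -0.58 (adjusted p = 0.00127) at 6 h and -1.17 (95% interval -1.34 to -1, adjusted p = 1.93e-06) at 24 h, which is 0.444 of the control level. The 6 h and 2 h groups overlapped and differed by -0.08 (95% interval -0.25 to 0.10, adjusted p = 0.552), so the order from high to low was control, then 2 h and 6 h without a called difference, then 24 h. With the slide as a block the 24 h change was -1.18 (SE 0.147, adjusted p = 0.00135). When the arrays were scaled by the spike-in spots, the 2 h change was -0.47 (adjusted p = 0.336) and the 6 h change -0.21 (adjusted p = 0.326), neither called, and the 24 h change was -0.77 (adjusted p = 0.000737).

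The Irx4, Mef2c and Gata4 probes were each printed as 10 spots on every array, the other 7 as 2 spots, and no spot of them was left out. The 30 Irx4 spots of the control arrays read 1.54 to 1.78 and the 30 spots at 24 h read 0.38 to 0.61. The 2 h arrays spread widest for Irx4, from 0.89 to 1.44 over their 30 spots, and the SD between their 3 cultures was 0.181. Within an array the median SD between the Irx4 spots was 0.0452. Spots of 1 array share their labelling and hybridisation, so their SD covers neither of these.

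**Figure D2:**
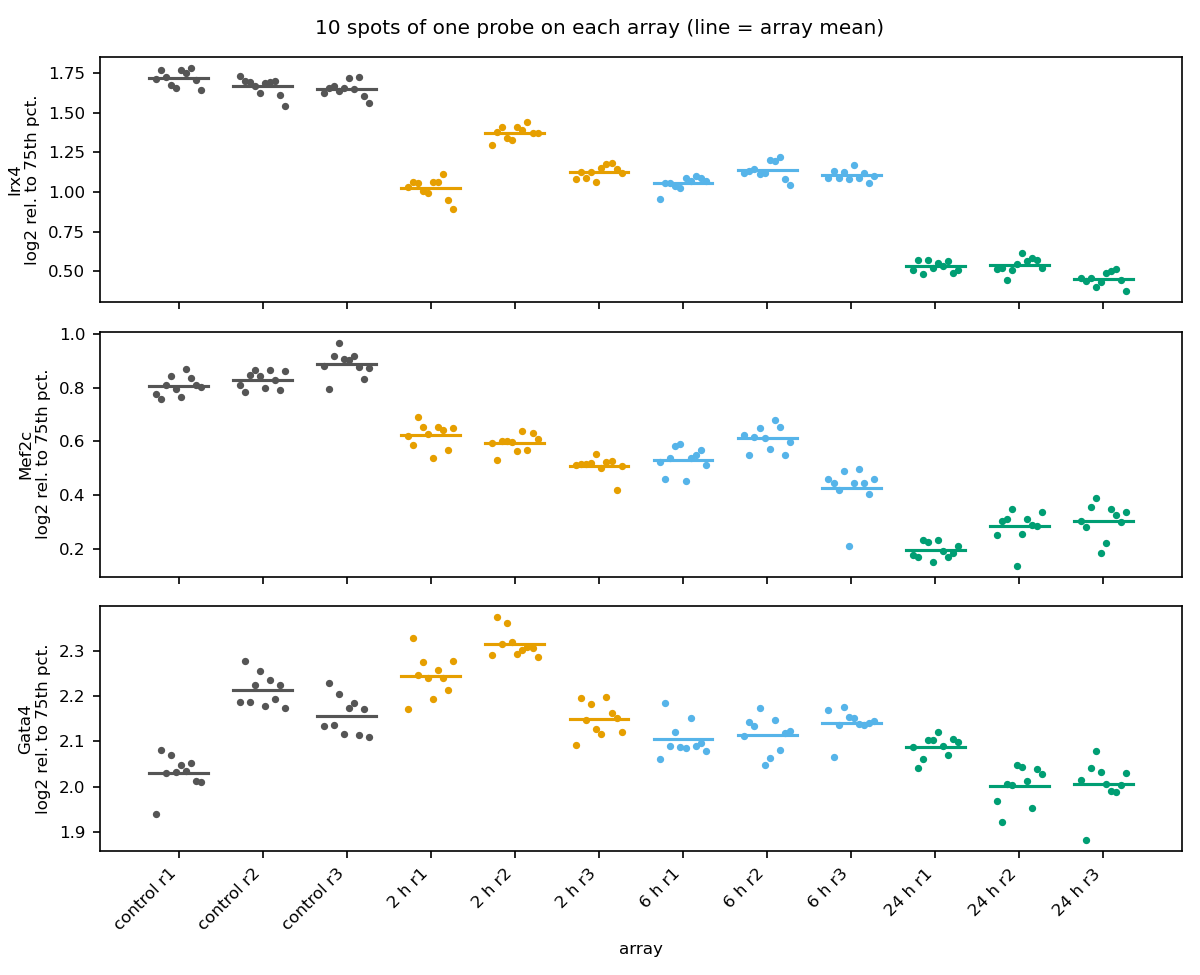
Log2 signal relative to the 75th percentile of the array (y axis) of the 10 spots of the Irx4, Mef2c and Gata4 probes on each of the 12 arrays (x axis); lines are array means and r is the replicate number. Irx4 spots at 24 h, at most 0.61, lie below all control spots, at least 1.54, whereas the Gata4 spots of control (1.94 to 2.28) and 24 h (1.88 to 2.12) overlap.

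The other Iroquois genes measured, Irx1, Irx2, Irx3 and Irx5, are listed among 21 family relatives of the 10 genes, of which 13 were tested. Irx3 was higher at 2 h by 0.19 (SE 0.0412, adjusted p = 0.0199), then lower by -0.19 at 6 h (adjusted p = 0.0114) and by -0.47 at 24 h (adjusted p = 1.13e-05; -0.46 and adjusted p = 0.00594 with the slide as a block). Irx5, named after its values were seen, was higher at 2 h by 0.23 (adjusted p = 0.013) and lower at 24 h by -0.27 (adjusted p = 0.000909; 0.0577 with the slide as a block). Irx1 and Irx2 were not called against control at any time, with 24 h changes of -0.15 and 0.02. At 2 h, Irx3 and Irx5 were therefore called in the direction opposite to Irx4. The difference between the genes was not tested. Array-median centring kept both 2 h calls and the 24 h call of Irx3 (-0.27, adjusted p = 0.000307). It ended the Irx3 call at 6 h (-0.09, adjusted p = 0.143) and the Irx5 call at 24 h (-0.07, adjusted p = 0.197). After spike-in scaling neither gene was called at any time. Irx3 was then 0.22, 0.18 and -0.06 at 2, 6 and 24 h, and Irx5 was 0.26 at 2 h and 0.14 at 24 h.

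Nkx2-5, the homeobox factor at the head of the cardiac programme, was the only one of the 10 genes called higher in a comparison with control on the scale of the 75th percentile. Its values were 3.22, 3.22 and 3.19 in the controls and 3.68, 3.59 and 3.61 at 2 h, a change of 0.42 (SE 0.067, 95% interval 0.27 to 0.57, adjusted p = 0.00541), or 1.34-fold. They were 3.46, 3.30 and 3.47 at 6 h and 3.40, 3.17 and 3.36 at 24 h. The 6 h cultures lay above every control, with a change of 0.20 that was not called (95% interval 0.05 to 0.35, adjusted p = 0.064). The 24 h cultures overlapped the controls, with a change of 0.10 (95% interval -0.05 to 0.25, adjusted p = 0.237) and, with the slide as a block, 0.01 (SE 0.123, adjusted p = 0.956). Other scalings called Nkx2-5 higher at the later times too: array-median centring gave 0.30 at 6 h (adjusted p = 0.0133) and 0.30 at 24 h (adjusted p = 0.00406), spike-in scaling gave 0.57 at 6 h (adjusted p = 0.0233) and 0.50 at 24 h (adjusted p = 0.0182), and the deposited matrix 0.21 at 6 h (adjusted p = 0.0469). From high to low the groups ran 2 h, 6 h, 24 h, control, and no neighbours in that order had a called difference: 6 h against 2 h was -0.22 (adjusted p = 0.0624) and 24 h against 6 h was -0.10 (adjusted p = 0.304). After spike-in scaling the 2 h change was 0.45 but was not called (adjusted p = 0.37). Within slide 1 alone, which held all control and 2 h arrays, the 2 h change was 0.42 (adjusted p = 0.0131). Its relative Nkx2-6 fell by 0.74 at 24 h (adjusted p = 0.000958), a call lost with the slide as a block (adjusted p = 0.175).

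Mef2c, a MEF2 factor needed for the formation of the ventricles, followed Irx4 in direction with smaller changes. Its values were 0.81, 0.83 and 0.89 in the controls, 0.62, 0.59 and 0.51 at 2 h, 0.53, 0.61 and 0.43 at 6 h, and 0.20, 0.29 and 0.31 at 24 h. All stretched cultures lay below all controls, the 2 h and 6 h groups overlapped, and the 24 h group lay below both. The changes from control were -0.27 at 2 h (SE 0.0574, adjusted p = 0.0192), -0.32 at 6 h (adjusted p = 0.00539) and -0.58 at 24 h (95% interval -0.71 to -0.45, adjusted p = 2.5e-05). The 24 h change was -0.43 with the slide as a block (SE 0.0944, adjusted p = 0.0156). The 2 h call was lost without the filter on dim probes, with only these 2 groups fitted, without control replicate 2, without control replicate 3 or without 2 h replicate 3, and spike-in scaling took all 3 calls. A probe for LOC685671, a sequence similar to Mef2c, was not above background on any array.

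Mef2a and Mef2d, the other MEF2 genes among the 10, were not called against control at any time. Mef2a ranged over -2.50 to -2.25 in the controls and -2.75 to -2.28 at 24 h, with a 24 h change of -0.16 (95% interval -0.41 to 0.09, adjusted p = 0.268). Its 24 h change with the slide as a block was -0.02 (SE 0.206). Mef2d ranged over 0.96 to 1.07 in the controls and 0.80 to 1.01 at 24 h, with a change of -0.11 (95% interval -0.26 to 0.04, adjusted p = 0.203) and, with the slide as a block, -0.04 (SE 0.128). A fall as large as that of Hand2, given below, lies inside the interval of Mef2a and outside that of Mef2d. Mef2b, a relative, was not called against control at any time.

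Both T-box genes were lower at 24 h and were not called at 2 or 6 h. Tbx5, which works with Gata4 and Nkx2-5 on natriuretic peptide and conduction genes, read -3.91, -3.86 and -3.98 in the controls, -3.85, -3.97 and -4.09 at 2 h, -4.12, -3.99 and -4.20 at 6 h, and -4.56, -4.47 and -4.49 at 24 h. The 24 h cultures lay below all others. The 24 h change was -0.59 (95% interval -0.75 to -0.43, adjusted p = 9.48e-05), and -0.45 with the slide as a block (SE 0.124, adjusted p = 0.0405). Its processed signal was low, with means of 86.8 in the controls and 70.1 at 24 h, where the lowest signal counted as above background was 14.1 to 26.3 on the 12 arrays. The size of its 24 h change depended on the processing: it was -0.33 with quantile normalization and -0.27 in the authors' deposited matrix, both called, and -0.19 after spike-in scaling, not called (adjusted p = 0.348).

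Tbx20, a T-box regulator of growth of the myocardium, read -2.90, -3.02 and -3.09 in the controls and -3.10, -3.60 and -3.31 at 24 h. The 24 h cultures spread widely (SD 0.25) and 1 of them lay next to the controls. The 24 h change was -0.33 (95% interval -0.57 to -0.09, adjusted p = 0.027) and, with the slide as a block, -0.29 (SE 0.205, adjusted p = 0.382). The call was also lost under quantile normalization, array-median centring, the deposited matrix, no filter on dim probes and a fit of only these 2 groups, and without control replicate 1 or 2 or 24 h replicate 2 or 3. At 2 and 6 h the change was 0.01 and 0.00. Of their relatives, Tbx21 fell by 0.54 at 24 h (SE 0.152, adjusted p = 0.0138), a call lost with the slide as a block (adjusted p = 0.323). The Tbx21 change was -0.35 under array-median centring (adjusted p = 0.0733) and -0.14 after spike-in scaling (adjusted p = 0.531), neither called. Its processed signal was 23500 to 25300 in the controls, and whether the probe reads Tbx21 alone was not checked.

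Hand2 was called lower at 24 h only. It read -1.82, -1.92 and -1.87 in the controls, between -1.89 and -1.80 at 2 h, between -1.92 and -1.87 at 6 h, and -2.14, -2.13 and -2.22 at 24 h. The 24 h cultures lay below all others. The 24 h change was -0.30 (95% interval -0.40 to -0.20, adjusted p = 0.00046). The slide block left -0.28 (SE 0.0882, adjusted p = 0.0639), and array-median centring and spike-in scaling also ended the call. Hand1, the related factor of the left ventricle, was measured at the edge of background: 3 of 3 control arrays, 2 of 3 at 6 h and 2 of 3 at 24 h were well above it, with signals of 11.9 to 18.4 at 6 h. Its fitted changes were -0.61 at 6 h (SE 0.171) and -0.46 at 24 h, and at such signals their size is not well determined. Hand1 passed the filter only through the control group, where it is highest, so its falls are not given as test results. They are nevertheless among the relatives counted lower at 6 and 24 h.

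Gata4, the GATA factor that carries hypertrophic signals to natriuretic peptide genes, was not called against control at any time. It read 2.03, 2.21 and 2.16 in the controls, 2.25, 2.32 and 2.15 at 2 h, 2.11, 2.11 and 2.14 at 6 h and 2.09, 2.00 and 2.01 at 24 h. The 24 h change was -0.10 (95% interval -0.23 to 0.03, adjusted p = 0.179), and -0.13 with the slide as a block (SE 0.112, adjusted p = 0.465). The 2 h and 24 h groups did not overlap and differed by -0.21 (adjusted p = 0.0156), a call that was lost with the slide as a block (-0.24, adjusted p = 0.197), under array-median centring, normexp and the deposited matrix and without 2 h replicate 2, and that turned to 0.17 after spike-in scaling.

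Gata6 followed a similar course with less spread. It read -1.82 in each of the 3 controls (SD 0.00313), between -1.75 and -1.67 at 2 h, between -1.82 and -1.79 at 6 h and between -1.99 and -1.93 at 24 h. The 2 h cultures lay above all controls, with a change of 0.12 that was not called (adjusted p = 0.0988), and the 24 h cultures lay below them, with a change of -0.13 that was (95% interval -0.22 to -0.04, adjusted p = 0.019). Blocking on the slide gave a 24 h change of -0.11 (SE 0.0764, adjusted p = 0.356), and when each array was centred on its median it turned to 0.06 (adjusted p = 0.204). The call was also lost under quantile normalization, spike-in scaling, the deposited matrix and a fit of only these 2 groups, and without control replicate 3 or 24 h replicate 2. Gata5, another relative, was named after its values were seen: it was lower at 24 h by -0.35 (adjusted p = 0.000306, and 0.0387 with the slide as a block). Its 24 h change was -0.16 under array-median centring (adjusted p = 0.0274). After spike-in scaling it was 0.05 and not called (adjusted p = 0.831).

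**Figure D3:**
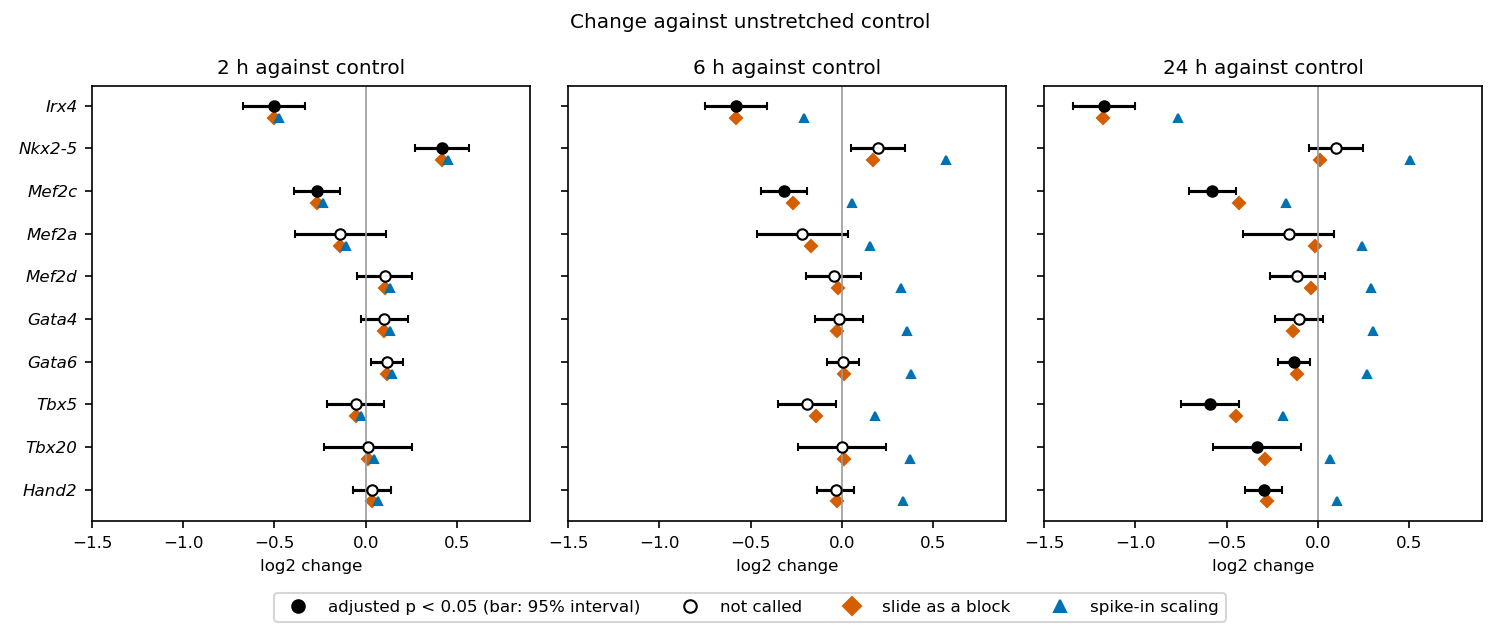
Log2 change against unstretched control (x axis) at 2, 6 and 24 h for the 10 genes (y axis). Black dots with 95% intervals are the changes (filled where the adjusted p was below 0.05), diamonds the change with the slide as a block and triangles the change after spike-in scaling; at 24 h Irx4 lies below 0 under all 3, whereas Gata6, Tbx20 and Hand2 turn positive after spike-in scaling.

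With the slide as a block, 3 of the 10 genes remained called at 24 h: Irx4, Mef2c and Tbx5. In that setting 2045 of all 14376 genes were called. Scaling by the spike-in spots moved the median change of all genes at 24 h from -0.08 to 0.32. It gave 2 calls among the 10 genes, Irx4 lower and Nkx2-5 higher, beside 5942 of all 14376 genes called. The spike-in level relative to the 75th percentile was higher on control replicate 2, at -1.82, than on the other 2 controls, both at -2.25. Centring on the array median moved the median of all genes to 0.11, and the share of called genes that were lower went from 66.3% to 28.3%. Relative to the median of all genes, the 24 h Irx4 change was -1.09. This value is the same under these 3 scalings by construction, since each subtracts a single constant from an array, so it does not test the scaling.

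No member was called between 6 h and 2 h (limma, 0 of 10 against 10.5% of all genes), and 2 of the 10, Gata6 and Nkx2-5, had an unadjusted p below 0.05, against 28.2% of all genes. The 2 groups did not overlap for 3 of the 10 genes, against 34.6% of all genes. Between 24 h and 6 h, 6 were called, all lower at 24 h, against 25% of all genes called and 15.5% called lower, and 7 did not overlap, against 45.7%; with the slide as a block 1 was, Irx4, at -0.60 (adjusted p = 0.0135). Within slide 2 alone, which held 1 of the 3 6 h arrays, the Irx4 difference was -0.60 (adjusted p = 0.0521). Between 24 h and 2 h, 9 were called lower, all but Mef2a, against 48.2% of all genes called and 30.2% called lower. The same 9 did not overlap, against 57.6% of all genes, and with the slide as a block 2 were called. The comparisons share their groups and are not independent of each other.

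Among the 13 tested family relatives, 2 were called higher at 2 h, 3 lower at 6 h and 7 lower at 24 h, with 0 higher at 24 h. Over all genes, 3.1% were called higher at 2 h, and 11.7% and 31.7% called lower at 6 and 24 h. The counts at 6 and 24 h include Hand1, which passed the filter only through the control group. The median 24 h change of the relatives was -0.27 beside -0.08 for all genes. Blocking on the slide, 2 of them were called lower at 24 h, and after spike-in scaling 0 were called lower and the median was 0.14.

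**Figure D4:**
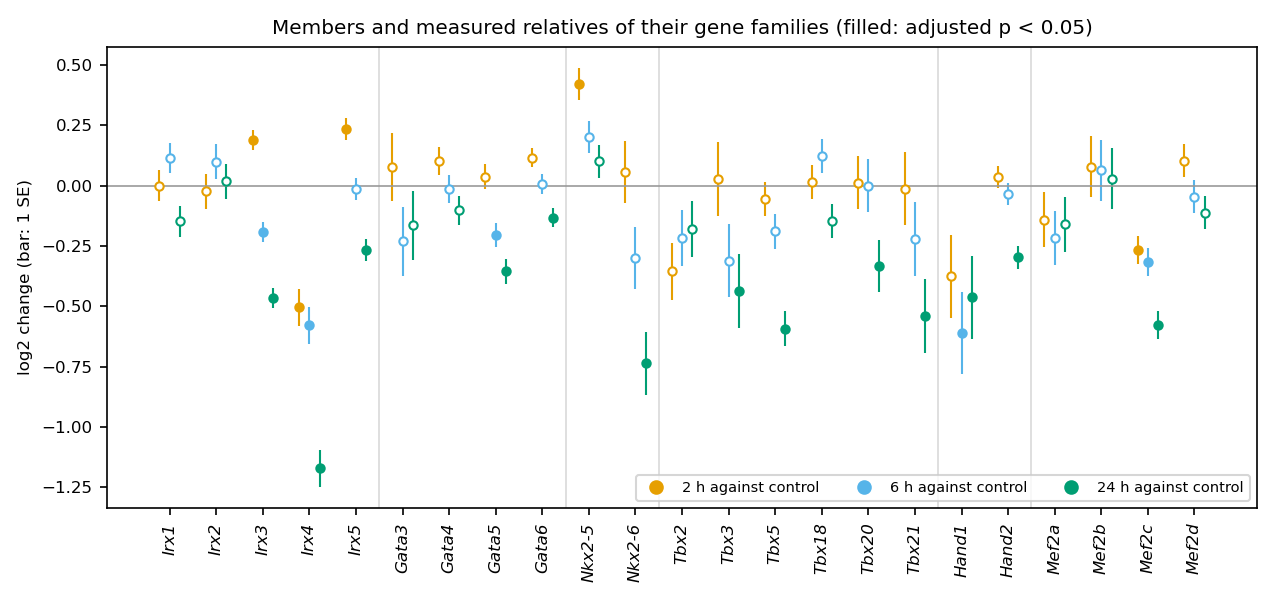
Log2 change against control (y axis, with 1 SE) at 2, 6 and 24 h for the 10 genes and their 13 tested relatives (x axis), grouped by family; filled dots had an adjusted p below 0.05. At 24 h, 7 relatives and 6 of the 10 genes were called lower, beside 31.7% of all genes, and 0 of them were called higher. These directions are relative to the 75th percentile, and after spike-in scaling 7 of the 10 genes and the median of the relatives (0.14) lie above 0.

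Proteins that bind or restrain these factors were listed as 40 cofactors and repressors, of which 31 were tested. At 24 h, 4 were higher and 7 lower, beside 31.7% of all genes called lower, with a median of -0.08, the same as for all genes. The direction of these counts turned with the scaling: array-median centring gave 12 higher and 1 lower, and spike-in scaling 9 higher and 0 lower. Srf, the serum response factor that acts with Gata4 and Nkx2-5, rose by 0.39 at 2 h (SE 0.0476, adjusted p = 0.00239) and by 0.22 at 6 h (adjusted p = 0.0113), and its 24 h change was -0.10 (adjusted p = 0.115). Nfatc4, a calcineurin-regulated partner of Gata4, fell by 0.55 at 2 h (SE 0.0716, adjusted p = 0.00242), and its 6 h change was -0.37 (adjusted p = 0.0075). It fell by 0.19 at 24 h (adjusted p = 0.0463, and 0.247 with the slide as a block). That 24 h change was 0.003 under array-median centring (adjusted p = 0.979) and 0.21 after spike-in scaling (adjusted p = 0.306). The 2 h change after spike-in scaling was -0.52, not called (adjusted p = 0.19). Zfpm2, also called Fog2, which binds Gata4 and represses its targets, fell by 0.42 at 24 h (adjusted p = 0.00064, and 0.0749 with the slide as a block). The 24 h Zfpm2 change was -0.23 under array-median centring (adjusted p = 0.0204) and -0.02 after spike-in scaling (adjusted p = 0.927). Hopx, a homeodomain protein that restrains Srf, fell by 0.40 at 6 h (SE 0.11, adjusted p = 0.0336). That call was lost with the slide as a block (adjusted p = 0.105), under array-median centring (adjusted p = 0.0907) and after spike-in scaling, where the change was -0.025. The 24 h change of Hopx was -0.085 (adjusted p = 0.552). Blocking on the slide, 1 of the 31 was called at 24 h, a higher one.

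Of 26 tested transcription factors of the heart outside these families, 0 were higher and 12 lower at 24 h (median -0.21), beside 31.7% of all genes called lower. For these factors array-median centring gave 4 higher and 6 lower, and spike-in scaling 3 higher and 0 lower (median 0.19). Ppargc1a, a coactivator of mitochondrial genes, fell by 0.79 at 24 h (SE 0.0551, adjusted p = 2.65e-06) and was already lower at 2 h, by -0.30 (adjusted p = 0.0101). Klf15, a repressor of hypertrophic genes, fell by 0.56 at 24 h (adjusted p = 3.24e-05), Prox1 by 0.66 (adjusted p = 0.012) and Msx2 by 0.57 (adjusted p = 0.000112). The slide block left 4 of the 26 called lower, among them Ppargc1a, Klf15 and Msx2 but not Prox1 (adjusted p = 0.0576), which was well above background on 2 of 3 arrays at 24 h. After spike-in scaling none of these 4 named factors was called.

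Known target genes of the 10 factors moved in both directions at 24 h: of 47 tested, 14 were higher and 24 lower. Over all genes, 47.9% were called at 24 h and 31.7% called lower. For the target genes array-median centring gave 17 higher and 16 lower, and spike-in scaling 15 higher and 3 lower (median 0.17). Xirp2, a MEF2 target of the intercalated disc, rose by 1.55 (SE 0.151, adjusted p = 2.13e-05) and was still called with the slide as a block, at 1.35 (adjusted p = 0.0116). Kcne1, a potassium channel subunit, was not well above background on any of the 3 control arrays. It passed the filter only through the 24 h group, where it is highest, so no test result is given for it. It is nevertheless counted among the target genes called higher at 2 and 24 h. Its 24 h level is given as at least 2.24-fold higher, on the processed signal with each dim control value raised to the lowest signal above background on its array. The measured means were -5.24 at 24 h and -6.81 in the controls. Hrc, a calcium-binding protein of the sarcoplasmic reticulum, fell by 1.09 (SE 0.0677, adjusted p = 1.39e-06), and Corin, the protease that processes natriuretic peptides, by 1.02 (adjusted p = 4.09e-06). Both stayed called with the slide as a block, at -1.15 (adjusted p = 0.000803) and -1.01 (adjusted p = 0.0027). At 2 h, 7 target genes were higher and 1 lower, beside 3.1% and 6.1% of all genes. Blocking on the slide, 6 were higher and 12 lower at 24 h.

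Cardiomyocyte markers were high on all arrays: their summed level, as multiples of the 75th percentile, was 1100 to 1190 in the controls and 935 to 1010 at 24 h; 10 of 14 were called lower and 1 higher at 24 h. Over all genes, 47.9% were called at 24 h and 31.7% called lower. Markers of some other cells were also lower at 24 h, but not those of all. Fibroblast markers summed to 198 to 211 in the controls and 150 to 169 at 24 h (8 of 13 lower, 0 higher), and macrophage and leukocyte markers to 16.8 to 16.9 and 5.84 to 6.8 (10 of 10 lower). Endothelial markers summed to 4.33 to 4.54 and 3.32 to 3.55 (7 of 11 lower, 1 higher), smooth muscle and pericyte markers to 62.1 to 63.8 and 61.9 to 63.5 (5 of 10 lower, 2 higher), and epicardial markers to 13.1 to 14.6 and 13.3 to 14.4 (3 of 10 lower, 3 higher). Atrial and pacemaker markers summed to 137 to 148 in the controls and 156 to 163 at 24 h, with 1 of 10 higher, Nppa, and 4 lower. At 2 h, when Irx4, Mef2c and Nkx2-5 were already called, the sums were 1140 to 1270 for cardiomyocyte, 190 to 208 for fibroblast and 17.7 to 20.6 for macrophage and leukocyte markers. These counts depended on the setting. Blocking on the slide, 2 cardiomyocyte, 5 fibroblast, 4 endothelial, 3 smooth muscle and 9 macrophage and leukocyte markers were called lower. After spike-in scaling, 0 cardiomyocyte, 1 fibroblast, 0 endothelial, 1 smooth muscle and 9 macrophage and leukocyte markers were called lower, and 4 fibroblast and 4 smooth muscle markers higher. A sum is set mainly by the brightest probes: the smooth muscle and pericyte sum barely moved, whereas the median 24 h change of that list was -0.36. The part of these markers in the 24 h results was not tested, and in bulk RNA fewer cells of a type and less RNA per cell cannot be told apart.

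Across the 12 arrays the genes most like each called member were found by Pearson correlation over all genes tested, as a description, since all arrays share the 4 groups. Irx4 was most like Ntf3 (r = 0.98) and Mefv (r = 0.98), and Mef2c most like Trpt1 (r = 0.98) and Arrdc3 (r = 0.97). Nkx2-5 was most like Ube2g2 (r = 0.95) and Dnajb1 (r = 0.94), a heat-shock co-chaperone. Gata6 was most like Nbl1 (r = 0.97) and Irx5 (r = 0.97), Hand2 most like Uqcrc2 (r = 0.99) and RGD1562101 (r = 0.98), Tbx5 like RGD1565886 (r = 0.98), and Tbx20 most like Pip5k1c and Igfbp1 (both r = 0.92).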

How the data were processed

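Total RNA from 12 cultures was labelled with Cy3 and hybridised to 1-colour Agilent rat arrays. The images were read with Feature Extraction 11.0.1.1, per the file headers (10.7.3.1 in the submitters' processing notes). The processed signal is, per the file headers, a linear intensity with background subtracted and trends within the array removed; flags marking outlier, saturated and above-background spots are 0 or 1 and also come from the deposited files. The deposited matrix is a linear intensity of unstated scaling and served as an alternative.

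Outlier spots were left out, spots of a probe averaged on the log2 scale and the 75th percentile of each array subtracted. Probes above background on all 3 arrays of a group were kept (18997 of 30367), with the brightest probe per gene. Group means were fitted to all 12 arrays with limma 3.58.1 in R 4.3.3 (two-sided tests, Benjamini-Hochberg over 14376 genes). The script was tested on simulated data. Named list genes were up to 4 called genes per list with the largest change, and for each gene called by the F test the 2 genes most like it; 1 of these is not reported here. The 10 genes and all lists were chosen with earlier results of these data known. Alternatives covered normalization, background, filters, slide, replicate number and left-out arrays.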

Additional observations from a re-analysis of the deposited data

Results flagged for a closer look

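The level differed between stretched groups, by a direct test of one group against another, for the following genes. These comparisons were not separated from time in culture, and the 24 h arrays shared slide 2 with 6 h replicate 3 only. A difference in the effect of stretch was therefore not tested. The log2 difference of 24 h from 6 h was Gata6 -0.14, Tbx5 -0.40, Tbx20 -0.33, Hand2 -0.26, Mef2c -0.26 and Irx4 -0.59. The log2 difference of 24 h from 2 h was Gata4 -0.21, Gata6 -0.25, Nkx2-5 -0.32, Tbx5 -0.54, Tbx20 -0.35, Hand2 -0.33, Mef2c -0.31, Mef2d -0.22 and Irx4 -0.67. With the slide as a block, 1 of the first 6 and 2 of these 9 remained below an adjusted p of 0.05. The calls of 24 h against 6 h were not equally stable. Of 27 alternatives, 24 lost the Tbx20 call and 19 the Gata6 call. The Tbx5, Hand2 and Mef2c calls were lost in 5, 6 and 6 of them, and the Irx4 call in 1. For 24 h against 2 h, the Tbx20 call was lost without a change of sign in 11 of 26 alternatives.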

How the results depend on the processing

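The number of the 10 genes called was 3, 2 and 6 at 2, 6 and 24 h against control, 0 for 6 h against 2 h, 6 for 24 h against 6 h, 9 for 24 h against 2 h and 7 by the F test. Counts stayed within 1.5 times these values under quantile normalization, normexp, the deposited matrix, the filters and the average of probes, but not under the following. Spike-in scaling gave 0 for 2 h against control, 1 for 6 h against control, 2 for 24 h against control, 1 for 24 h against 6 h, 0 for 24 h against 2 h, 2 for any group. The slide as a block gave 3 for 24 h against control, 1 for 24 h against 6 h, 2 for 24 h against 2 h, 3 for any group. Of all 14376 genes, spike-in scaling called 108, 2644 and 5942 at 2, 6 and 24 h against control, and the slide block 1184, 1600 and 2045. Slide 2 alone gave 0 for 24 h against 6 h, and array-median centring gave 4 for 24 h against 2 h. Leaving out 1 array at a time gave 2 to 3 at 2 h, 2 to 3 at 6 h, 5 to 6 at 24 h, 0 to 1 for 6 h against 2 h, 4 to 5 for 24 h against 6 h, 7 to 9 for 24 h against 2 h and 6 to 7 by the F test.

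The next alternatives were chosen after seeing the data. The slide and the replicate block together gave 1 for 6 h against control, 1 for 24 h against control, 1 for 24 h against 6 h, 1 for 24 h against 2 h. Using only the 242 of 350 spike-in spots above background on all arrays gave 0 for 2 h against control, 5 for 6 h against control, 2 for 24 h against control, 1 for 24 h against 6 h, 0 for 24 h against 2 h, 2 for any group. Over all genes it called 181, 6855 and 5472 at 2, 6 and 24 h against control. The same with control replicate 2 left out, whose spike-in level stood apart, gave 0 for 2 h against control, 0 for 6 h against control, 1 for 24 h against control, 2 for 24 h against 6 h, 0 for 24 h against 2 h, 1 for any group.

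Changes of sign among called changes were as follows, as log2 changes. Array-median centring gave for 24 h against control, Gata6 0.063. Spike-in scaling gave for 6 h against control, Mef2c 0.055; for 24 h against control, Gata6 0.27, Tbx20 0.069, Hand2 0.11; for 24 h against 2 h, Gata4 0.17, Gata6 0.12, Nkx2-5 0.052, Tbx20 0.026, Hand2 0.04, Mef2c 0.059, Mef2d 0.16. The spike-in spots above background gave for 6 h against control, Gata4 0.47, Hand2 0.45, Mef2c 0.17; for 24 h against control, Gata6 0.30, Tbx20 0.096, Hand2 0.13; for 24 h against 2 h, Gata4 0.054, Gata6 0.011, Mef2d 0.043, and without control replicate 2 for 6 h against control, Mef2c 0.004; for 24 h against control, Gata6 0.14; for 24 h against 2 h, Gata4 0.054, Gata6 0.011, Mef2d 0.043. The Irx4 change at 24 h kept its sign and its call under all 26 alternatives, between -1.25 and -0.74. The cause was not tested.

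The replicate numbers did not pair the cultures: correlations of same-numbered deviations were -0.11 to 0.10 over 18 pairs. With the replicate number as a block the counts were 3, 3, 6, 0, 4, 9 and 6, in the order given at the start.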
